A study of Mus musculus with 278 samples.

Results

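The genes described here are target and feedback genes of the Wnt/beta-catenin pathway, taken by name: Axin2, Lef1, Ccnd1, Bmp4, Lgr5, Nkd1, Sp5, Tcf7, Rnf43 and Znrf3. Of these 10 genes, 8 were rows of the expression table and all 8 passed the filter on low genes, out of 14145 genes in the table and 12355 that passed. Nkd1 and Sp5 were not analysed here. For each gene, 3 readouts were taken: the share of cells in which it was detected, its level in the cells that expressed it, and its detection together with the other genes in the same cell.

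In canonical Wnt signalling, ligand binding to Frizzled and Lrp5/6 receptors stops the destruction complex from degrading beta-catenin, which then enters the nucleus and activates transcription through Lef/Tcf factors. Several of the induced genes act back on the pathway, so that the response is limited or prolonged. In skin, the pathway is best known for hair follicle formation and growth, and sustained beta-catenin activity in adult epidermis induces ectopic follicles.

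The study captured single mouse keratinocytes, cultured from adult dorsal skin, from co-cultures of 9 parts wild-type (WT) and 1 part K14ΔNβ-cateninER cells. In the latter, a Krt14 promoter drives a beta-catenin that lacks its N-terminus, and so escapes degradation, joined to a receptor domain that 4-hydroxy-tamoxifen (4OHT) switches on. Treated co-cultures received 200 nM 4OHT for 24 h and untreated co-cultures received the carrier DMSO. Both conditions therefore held the transgenic cells, which were not told apart here, and so the values describe all captured cells rather than WT neighbours alone. The library names fall into 2 series, AG and GHA501A. The AG series gave 66 untreated and 64 treated cells and the GHA501A series 71 untreated and 69 treated cells, 270 in all. A further 8 AG cells, in which name and treatment label disagreed, were left out.

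Values were TPM, read counts scaled by gene length and to a total of 1000000 in every cell, so levels of different genes can be compared. The values do not carry the depth of a cell, so the precision of a single low value could not be worked out from them. A gene was called detected at TPM over 1. The median number of genes detected per cell lay between 6008 and 6392 in the 4 sets. Cells are not replicates of a condition, so the 4 sets were compared, with 2 sets per condition. The labels do not say whether the sets came from separate cultures or animals. With 4 sets, a gene by itself gives little information on spread. The standard errors (SE) and p-values of the fits below rest largely on a spread pooled over all genes tested, and cover these sets only.

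The cell type label was checked against marker genes. In the AG series, Krt14, a keratin of basal keratinocytes, had a median of 4864 TPM in untreated and 4997 TPM in treated cells, and Col1a1, a fibroblast collagen, a median of 0 TPM in both. The order was turned around in the GHA501A series, with Krt14 medians of 2.25 and 10.1 TPM and Col1a1 medians of 1123 and 909 TPM. With a cut of 100 TPM for each gene, 64 of 66 and 59 of 64 AG cells were Krt14-high only. In the GHA501A series, 60 of 71 untreated and 49 of 69 treated cells were Col1a1-high only, and 8 and 10 were Krt14-high only. Cells high for both genes numbered 2 of 71 untreated and 10 of 69 treated GHA501A cells, and 2 of 66 and 4 of 64 AG cells. This class thus differed in size between the GHA501A sets. With 1 set per condition, an effect of treatment cannot be told apart from a difference between sets. The part of this class in the results was not tested. The label "keratinocyte" therefore did not hold by these markers for most GHA501A cells, which are called by their series and by Krt14 and Col1a1 below.

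The series also differed in genes that every cell is expected to use. In the AG series 0.806% of the 14145 genes were detected in under 5% of cells although over 90% of GHA501A cells, and over 90% of the 30 GHA501A cells with Krt14 over 100 TPM, had them. Ctnnb1, which encodes beta-catenin itself, was one of them: it was detected in 0 of 130 AG cells, with a highest value of 0.419 TPM, and had medians of 61.4 and 50.1 TPM in untreated and treated GHA501A cells. The ribosomal protein genes Rps24, Rpl31 and Rpl35a and the translation factor gene Eif4a1 had medians of 0 TPM in both AG sets and of 90.6 TPM or more in both GHA501A sets (these were chosen after their values were seen). In the other direction, 21 genes were detected in over 90% of AG cells and under 5% of GHA501A cells. A value of 0 TPM in 1 series is therefore given below as listed at 0, and a difference between the series cannot be told apart from a difference in how the rows were filled. Between conditions of the same series, 0 genes differed in this way.

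Lef1 and Tcf7, the DNA-binding partners of beta-catenin that are also induced by it, differed in where they were found. Lef1 was listed at 0 TPM in all 66 untreated AG cells, which allows a share of up to 4.55% of cells over 1 TPM (3 divided by the number of cells; the 95% Clopper-Pearson limit was 5.44%), and was detected in 1 of 64 treated AG cells, at 1.10 TPM. In the GHA501A series it was detected in 14 of 71 untreated cells (19.7%, 95% Clopper-Pearson interval 11.2 to 30.9) and in 19 of 69 treated cells (27.5%, 17.5 to 39.6). These intervals cover counting of cells only, and those of the 2 conditions overlapped. Among the positive GHA501A cells the median was 3.72 TPM in untreated and 5.03 TPM in treated cells, and the highest cells reached 47.4 and 56.4 TPM. Within this series Lef1 was detected in 26 Col1a1-high cells (23.9% of them), in 5 of 12 cells high for both genes and in 1 of 18 Krt14-high cells (5.56%).

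Bmp4, the bone morphogenetic protein ligand that signals in hair follicle differentiation, was distributed the other way. It was detected in 17 of 66 untreated (25.8%, 15.8 to 38.01) and 18 of 64 treated AG cells (28.1%, 17.6 to 40.8), with medians of 3.80 and 2.20 TPM among positive cells and highest values of 13.1 and 45.2 TPM. It was listed at 0 TPM in all 71 untreated GHA501A cells, which allows up to 4.23% over 1 TPM (Clopper-Pearson limit 5.06%), and was detected in 3 of 69 treated GHA501A cells (4.35%, 0.91 to 12.2). Those 3 cells held 76.2, 79.02 and 115.995 TPM, each above the highest AG cell, and the other 66 were listed at 0. The cells with the lowest and the highest of these values were high for both Krt14 and Col1a1, and the third was Col1a1-high. Of the 18 Krt14-high GHA501A cells 0 had Bmp4, which allows up to 16.7% (Clopper-Pearson limit 18.5%), against 34 of 123 Krt14-high AG cells (27.6%).

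**Figure D1:**
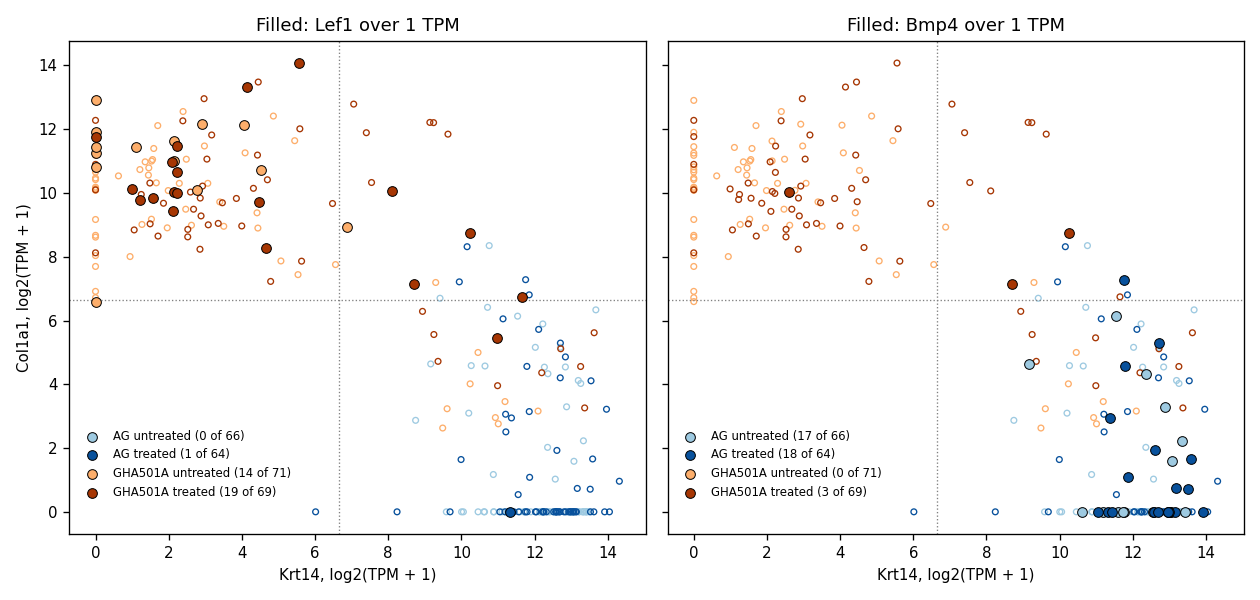
Each point is 1 cell by its Krt14 (x axis) and Col1a1 level (y axis), both as log2(TPM + 1), coloured by series and condition, and filled where Lef1 (left) or Bmp4 (right) exceeded 1 TPM. Dotted lines mark 100 TPM. Filled Lef1 cells are mostly GHA501A cells (33 of 140) and lie mostly at high Col1a1. Filled Bmp4 cells are mostly AG cells (35 of 130), a series in which 123 cells were Krt14-high only. In the GHA501A series 0 of 18 Krt14-high cells had Bmp4.

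The 250 bases upstream of the transcription starts of Lef1 and Bmp4 are shown, with CTTTG on either strand in capitals. CTTTG is the core of the Lef/Tcf binding motif. Whether it bears on the difference between the series was not tested. The sequences are from RefSeq promoters of the build GRCm38.p6, in which 7 of the 10 genes had an entry. That of Lef1 is chr3:131110073-131110322 on the + strand, upstream of that of 4 listed starts which lies nearest to the gene start in GENCODE. That of Bmp4 is chr14:46390670-46390919 on the - strand.
Lef1: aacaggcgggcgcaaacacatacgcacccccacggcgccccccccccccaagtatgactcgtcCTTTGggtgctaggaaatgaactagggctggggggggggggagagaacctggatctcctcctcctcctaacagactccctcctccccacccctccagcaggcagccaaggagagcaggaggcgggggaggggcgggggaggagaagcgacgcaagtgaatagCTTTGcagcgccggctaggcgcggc
Bmp4: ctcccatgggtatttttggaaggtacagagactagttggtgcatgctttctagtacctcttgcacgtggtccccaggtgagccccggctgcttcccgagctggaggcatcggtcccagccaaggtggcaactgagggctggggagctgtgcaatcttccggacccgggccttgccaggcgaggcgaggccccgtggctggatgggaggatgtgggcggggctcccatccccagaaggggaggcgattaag
The Lef1 stretch holds CTTTG 2 times, the nearer one 25 bases before the start. The Bmp4 stretch does not hold these letters, nor do those of Axin2, Nkd1, Tcf7 and Rnf43, while that of Sp5 holds them 4 times. Among all 32851 promoters of the same length, 48.6% hold CTTTG at least once. The longer CTTTGAT, which the Lef1 and Bmp4 stretches do not have, is held by 3.21%. A match is a string of letters and not a bound site, and its lack says only that the letters are not in this window.

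Tcf7 was detected in similar shares of all 4 sets: 16 of 66 (24.2%), 15 of 64 (23.4%), 19 of 71 (26.8%) and 16 of 69 cells (23.2%) in untreated and treated AG and untreated and treated GHA501A cells. Its median among positive cells ran from 4.48 TPM in untreated AG to 12.5 TPM in treated GHA501A cells. The single highest values were 234 and 220 TPM, both in untreated GHA501A cells, and all sets overlapped. Among GHA501A cells it was detected in 31 Col1a1-high cells (28.4% of them) and in 1 of 18 Krt14-high cells, whereas 30 of 123 Krt14-high AG cells had it (24.4%).

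Axin2, the scaffold of the destruction complex and a classical negative-feedback target, was found in few cells. It was detected in 8 of 66 untreated (12.1%, 5.38 to 22.5) and 10 of 64 treated AG cells (15.6%, 7.76 to 26.9). For GHA501A cells the numbers were 4 of 71 (5.63%, 1.56 to 13.8) and 3 of 69 cells (4.35%, 0.91 to 12.2). The median in positive AG cells was 7.13 TPM without and 3.42 TPM with treatment, and the highest AG cells had 17.5 and 21.3 TPM. The 3 treated GHA501A cells had 1.10, 14.98 and 28.1 TPM and the 4 untreated cells 1.18 to 6.58 TPM. Of these 7 cells 6 were Col1a1-high and 1, at 14.98 TPM, was high for both genes. The sets thus overlapped in level, and the intervals of the shares overlapped between conditions in both series.

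Znrf3 and Rnf43, paralogous transmembrane ubiquitin ligases that remove Frizzled from the cell surface, differed in how often they were detected. Znrf3 was detected in all 66 untreated and in 60 of 64 treated AG cells (93.8%), with medians of 45.1 and 29.9 TPM over all cells. In the GHA501A series it was detected in 62 of 71 untreated (87.3%, 77.3 to 94.04) and 50 of 69 treated cells (72.5%, 60.4 to 82.5), with medians of 32.9 and 27.6 TPM. With treatment the share of Znrf3-positive cells was lower in both series, at 93.8% against 100% and at 72.5% against 87.3%, while the median among positive GHA501A cells was 40.8 TPM without and 41.03 TPM with treatment. Among Col1a1-high GHA501A cells 51 of 60 untreated and 40 of 49 treated cells had Znrf3. Of the Krt14-high cells of that series 8 of 8 untreated and 4 of 10 treated had it, and of the treated cells high for both genes 6 of 10 had it. At TPM over 0 the shares of treated cells were 98.4% in the AG and 94.2% in the GHA501A series, so most of the treated cells at or below 1 TPM were not listed at 0.

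Rnf43 was detected in 4 of 66 (6.06%), 4 of 64 (6.25%), 1 of 71 (1.41%) and 0 of 69 cells, in the order of sets used above, and the last allows up to 4.35% (Clopper-Pearson limit 5.21%). The highest value was 20.9 TPM, in an untreated AG cell, against 7.07 TPM in treated AG cells and 7.94 TPM in the single GHA501A cell. All 9 positive cells were Krt14-high.

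Ccnd1, which encodes cyclin D1 and drives entry into S phase, was the most abundant of the genes. It was detected in 60 of 66 (90.9%) and 54 of 64 (84.4%) AG cells and in 71 of 71 and 68 of 69 (98.6%) GHA501A cells, untreated and treated. Its medians over all cells were 72.01 and 69.5 TPM in the AG series and 172 and 147 TPM in the GHA501A series. The ranges were wide and overlapped: the highest cells held 832, 995, 782 and 804 TPM, and the lowest 0, 0, 3.90 and 0.839 TPM.

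Lgr5, an R-spondin receptor that marks hair follicle and intestinal stem cells, was detected in 62 of 66 (93.9%), 57 of 64 (89.1%), 66 of 71 (92.96%) and 64 of 69 cells (92.8%), again in the order untreated and treated AG, untreated and treated GHA501A. Its level was low in all sets, with medians of 5.87, 3.25, 3.58 and 3.21 TPM. At TPM over 5 the share was 56.1% in untreated and 34.4% in treated AG cells, and 21.1% and 27.5% in GHA501A cells, so the direction differed between the series. The highest untreated AG cell had 253 TPM, 32.2% of the summed level of that set, and the next highest 46.4 TPM. Detection was not confined to Krt14-high cells: 94.5% of Col1a1-high GHA501A cells had Lgr5, against 91.9% of the 123 Krt14-high AG cells. Over cells, its level moved with that of Cntn2 and Ptpn7 (given below), and what this means for its detection was not tested.

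**Figure D2:**
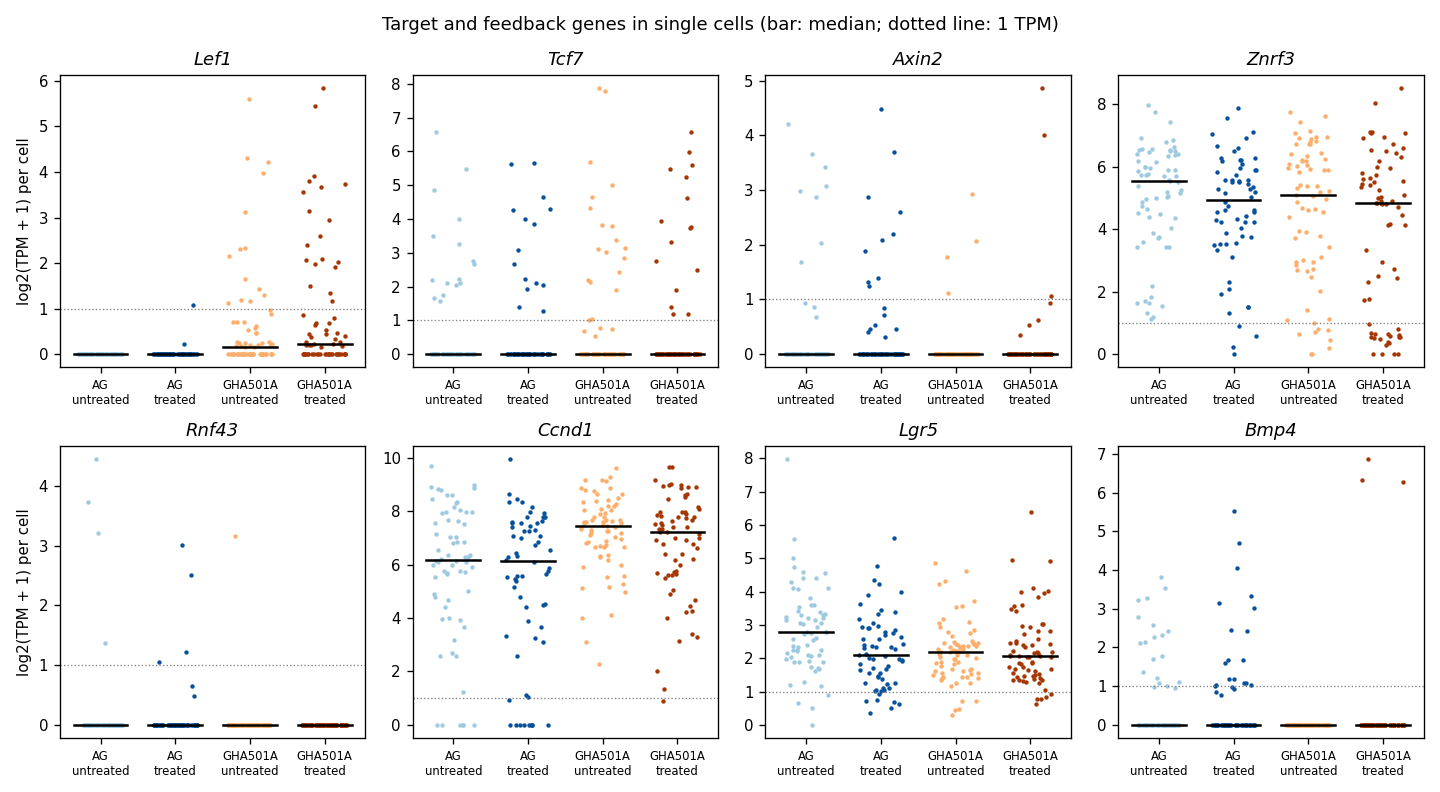
Levels of the 8 genes in single cells, as log2(TPM + 1) on the y axis, by series and condition on the x axis; each point is a cell, bars are medians and the dotted line is 1 TPM. Ccnd1, Znrf3 and Lgr5 are present in most cells of every set, whereas the medians of Tcf7, Axin2, Rnf43 and Bmp4 are 0 in every set and that of Lef1 is at most 0.167 TPM.

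**Figure D3:**
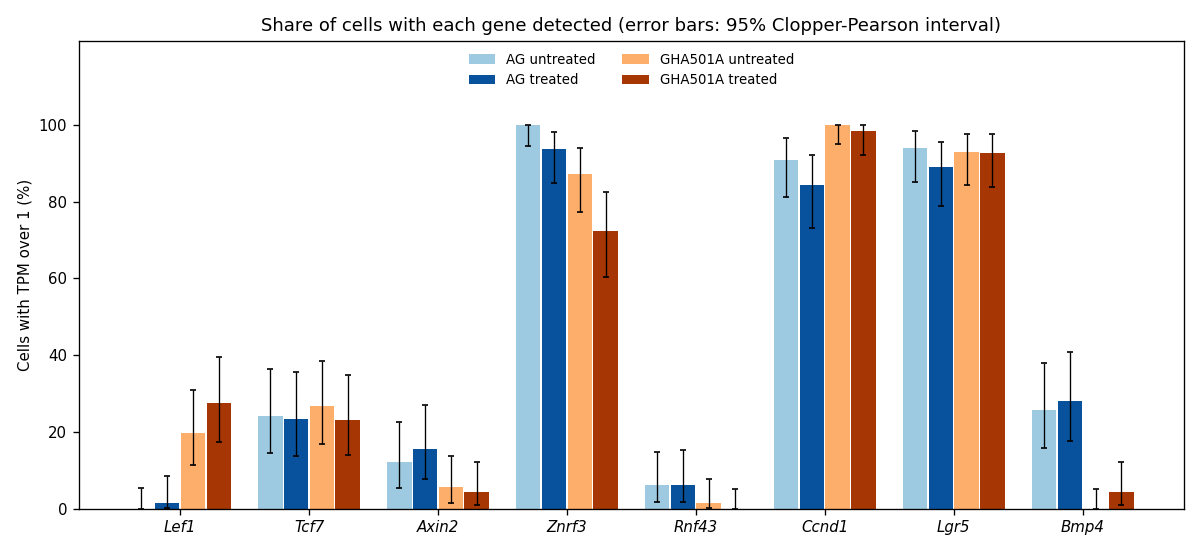
Share of cells with TPM over 1 (y axis, %) for each gene, with 1 bar per series and condition and 95% Clopper-Pearson intervals as error bars. Lef1 is found in GHA501A and Bmp4 mostly in AG cells, and the share with Znrf3 lies between 72.5% in treated GHA501A and 100% in untreated AG cells.

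By detection, the 8 genes formed 2 groups. Over all 270 cells Ccnd1 (93.7%), Lgr5 (92.2%) and Znrf3 (88.1%) were found in most cells, and Tcf7 (24.4%), Bmp4 (14.1%), Lef1 (12.6%), Axin2 (9.26%) and Rnf43 (3.33%) in few. Median levels ordered the first group as Ccnd1, Znrf3 and Lgr5 in each of the 4 sets. In the positive cells of the second group, AG medians were 3.43 TPM for Bmp4, 5.38 TPM for Tcf7, 5.68 TPM for Axin2 and 5.87 TPM for Rnf43, with Lef1 in 1 cell at 1.10 TPM. GHA501A medians were 3.20 TPM for Axin2, 4.01 TPM for Lef1, 9.48 TPM for Tcf7 and 79.02 TPM for the 3 Bmp4 cells, with Rnf43 in 1 cell at 7.94 TPM. The order of these genes thus differed between the series.

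To compare conditions, the mean TPM of each set was taken, as log2(mean TPM + 1), and treated and untreated sets were fitted with limma with series as a block. Of the 8 genes 0 were called at adjusted p under 0.05 and an absolute log2 difference over 0.5, as were 0% of the 12355 genes tested. At unadjusted p under 0.05 it was 0 of 8 genes, against 3.72% (459) of all genes. The adjusted p was 0.998 for each of the 8 genes. Their median log2 difference was -0.21, against -0.00089 over all genes tested, 3 of 8 had a positive difference (6163 of 12355 genes), and 6 of 8 had the same sign in both series (5839 of 12355 genes).

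The widest difference was that of Bmp4, whose set means were 1.26 and 2.13 TPM in untreated and treated AG cells and 0 and 3.93 TPM in the GHA501A series. Its fitted difference was 1.38 ± 0.54 (SE; 95% interval -0.05 to 2.82; unadjusted p = 0.0559 by limma), made up of 0.47 in the AG series and 2.30 in the GHA501A series. The GHA501A value is set against a set listed at 0, rests on the 3 cells given above and depends on the pseudocount. It was 3.02 with a pseudocount of 0.1, 0.17 with log2(TPM + 1) averaged over cells, 0.97 without the highest cell of each set (an alternative added after seeing the data) and 0.26 in Krt14-high cells only. With the 8 left-out AG cells it was 1.57 by treatment label (unadjusted p = 0.0263, limma) and 1.13 by name prefix (unadjusted p = 0.158, limma), with adjusted p of 0.997 and 0.998.

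Lef1 and Axin2 had small positive differences, of 0.26 ± 0.34 (SE; 95% interval -0.65 to 1.17) and 0.23 ± 0.35 (-0.70 to 1.15). In the AG series their differences were 0.03 and -0.04, and in the GHA501A series 0.49 for each, where the highest of 69 treated cells held 26.6% and 60.6% of the summed level. In Krt14-high cells only, the Axin2 difference was -0.01.

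The other 5 genes had negative differences within their intervals: Tcf7 -0.37 ± 0.36 (SE), Lgr5 -0.32 ± 0.46, Rnf43 -0.29 ± 0.33, Znrf3 -0.23 ± 0.33 and Ccnd1 -0.20 ± 0.33. For Ccnd1 the 95% interval ran from -1.07 to 0.67 and for Znrf3 from -1.10 to 0.64. These widths come largely from the spread pooled over all genes, and this fit does not bound either gene more closely. Lgr5 was lower with treatment in the AG series by 1.00 and higher in the GHA501A series by 0.36. The Tcf7 difference was 1.05 in Krt14-high cells only, the opposite sign. There the GHA501A series held 8 untreated cells, 0 of them with Tcf7 over 1 TPM, and 10 treated cells. Of these 10 cells 1 had Tcf7, at 46.97 TPM, and it held all of their summed level. In Krt14-high AG cells log2(mean TPM + 1) of Tcf7 was 2.22 without and 1.93 with treatment.

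**Figure D4:**
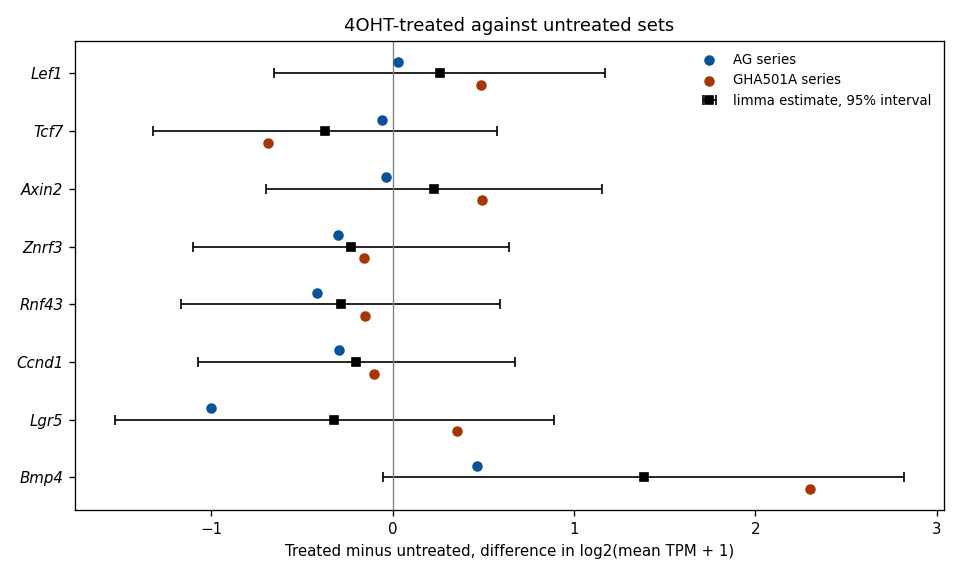
Difference between treated and untreated sets in log2(mean TPM + 1) on the x axis for each gene, in the AG series (blue), in the GHA501A series (brown) and from limma (square, with its 95% interval). All 8 intervals include 0, and the Bmp4 estimate of 1.38 is the farthest from it.

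To compare series, the same model was fitted with treatment as a block. Of the 8 genes 1 was called, Lef1, while 29% of all genes tested were called, 10.8% as higher and 18.2% as lower in the AG series. A share of 1 in 8 is thus not above that of all genes. Lef1 had set means of 0 and 0.0199 TPM in the AG series and 1.90 and 3.07 TPM in the GHA501A series, a difference of -1.76 ± 0.34 (SE, adjusted p = 0.0231 by limma). Set against AG sets at or near 0, this value depends on the scale: it was -4.52 with a pseudocount of 0.1 and -0.77 with log2(TPM + 1) averaged over cells, and was called with both. It was -0.35 in Krt14-high cells only, where it was no longer called (adjusted p = 0.706, limma). With 1 set left out, and then no block, the difference was -1.75 without the untreated and -1.78 without the treated AG set. It was -2.01 without the untreated and -1.52 without the treated GHA501A set. Each of these fits leaves only 1 set in a series, so they do not settle whether the Lef1 call holds.

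None of the other 7 passed the threshold. Tcf7 and Ccnd1 were lower in the AG series by values that did not (-0.87 ± 0.36 SE, adjusted p = 0.144, and -0.65 ± 0.33, adjusted p = 0.213, limma). Bmp4 had a difference of only 0.26 ± 0.54 in mean level, although it was detected in 26.9% of AG and 2.14% of GHA501A cells, since the 3 positive GHA501A cells held much higher values. Axin2 (0.50), Lgr5 (0.51), Rnf43 (0.44) and Znrf3 (0.03) had positive differences. Ccnd1 was called when log2(TPM + 1) was averaged over cells (-1.45, adjusted p = 0.00509), and Rnf43 with a pseudocount of 0.1 (1.79, adjusted p = 0.0455).

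To ask whether the genes were found together, their detection in the same cell was counted. On average a cell had 3.53 and 3.42 of the 8 genes in untreated and treated AG cells and 3.34 and 3.23 in GHA501A cells, so treated cells had 0.11 fewer in each series (exact sign-flip permutation test over 2 series, two-sided p = 0.5, the smallest that 2 series allow). Counting only the 5 rarely detected genes, 46.97% and 43.8% of AG cells and 57.7% and 53.6% of GHA501A cells had none of them, and 12.1%, 15.6%, 9.86% and 10.1% had 2 or more. Over cells, the count had a Spearman's rho with the number of all genes detected of 0.42 in treated AG cells and of 0.015, 0.14 and 0.16 in untreated AG and untreated and treated GHA501A cells. In cells with at least 5000 genes detected, treated minus untreated was -0.02 in the AG and -0.13 in the GHA501A series.

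For each of the 28 pairs, the number of cells with both genes was set beside the product of the 2 shares in each set, summed over the sets. The sums take untreated and treated sets together, so they cannot speak to induction by treatment. For the 22 pairs with a product of at least 5 cells, 18 included Ccnd1, Lgr5 or Znrf3, which most cells had and which therefore leave little room for a departure from the product. Of these 18 pairs 17 were within 20% of it, and the exception was Ccnd1 and Rnf43, with 6 cells against 8.01. The 10 pairs among the other 5 genes could differ more, and 6 of them were above and 4 below the product. Axin2 and Bmp4 were found together in 8 cells, against 5.00 given by the product, and Lef1 and Tcf7 in 11 cells, against 8.39. Tcf7 and Rnf43 shared 3 cells, against 2.18. Among rarer pairs, Lef1 and Bmp4 shared 3 cells against 1.11, Axin2 and Rnf43 3 against 1.17, and Axin2 and Lef1 3 against 1.77. The pairs below the product were Bmp4 and Tcf7, with 8 cells against 9.04, Axin2 and Tcf7, with 6 against 6.05, Bmp4 and Rnf43, with 2 against 2.16, and Lef1 and Rnf43, with 0 against 0.26. A single cell, which held Axin2, Lef1, Bmp4 and Tcf7 together and is described below, counts in all 6 pairs among these 4 genes. These counts are small, cells of a set share libraries, and no test was made.

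**Figure D5:**
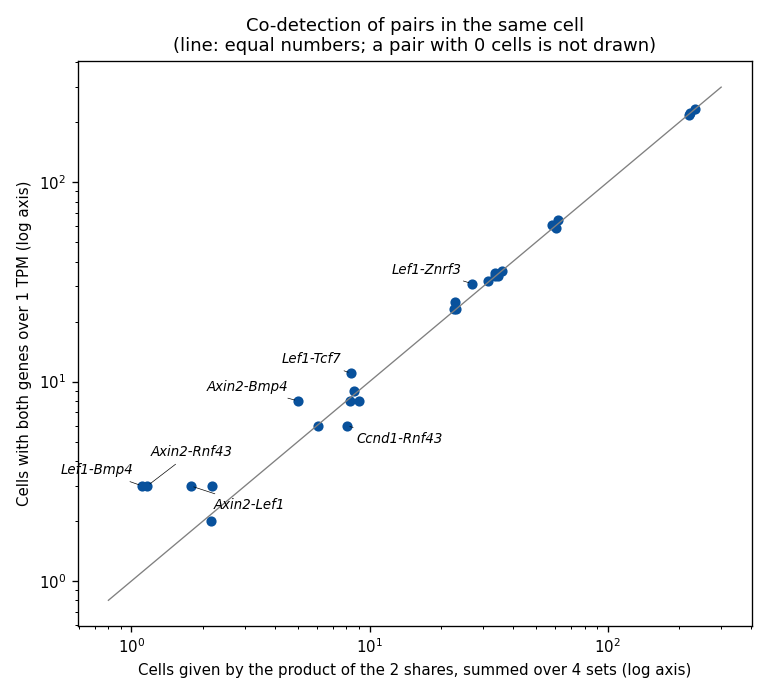
Each point is a pair of the 8 genes: cells with both over 1 TPM (y axis, log scale) against the number given by the product of their shares (x axis, log scale), summed over 4 sets, with a line of equal numbers. Pairs with Ccnd1, Lgr5 or Znrf3, which most cells had, lie near the line (17 of 18 with a product of at least 5 cells are within 20%), and Axin2-Bmp4 (8 against 5.00) and Lef1-Tcf7 (11 against 8.39) lie above it.

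Only 5 of 270 cells held 6 or more of the 8 genes, and 1 held 7. That cell, a treated GHA501A cell high for both Krt14 (1212 TPM) and Col1a1 (430 TPM), had Bmp4 at 115.995 TPM, Znrf3 at 365 TPM, Axin2 at 14.98 TPM, Lgr5 at 9.61 TPM, Lef1 at 7.77 TPM and Tcf7 at 1.63 TPM. Its Bmp4 and Znrf3 values were the highest of all cells. It also had Ctnnb1 at 178 TPM and Esr1, the oestrogen receptor gene, at 83.6 TPM, with 7280 genes detected. The 4 cells with 6 of the genes were 2 untreated and 1 treated AG cell and 1 untreated GHA501A cell. Their Axin2 levels were 1.18 to 6.88 TPM.

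Esr1 was detected in 9 of 71 untreated and 9 of 69 treated GHA501A cells, up to 58.2 and 123 TPM, and in 1 of 66 and 2 of 64 AG cells, up to 1.13 and 2.56 TPM. It shared 2 cells with Rnf43, against 0.31 given by the product of shares, 2 with Axin2, against 1.33, 2 with Bmp4, against 1.21, 5 with Lef1, against 4.28, and 7 with Tcf7, against 5.21. With the widely detected genes the numbers were 21 against 20.5 for Ccnd1, 19 against 19.4 for Lgr5 and 17 against 17.3 for Znrf3. Whether these reads come from the transgene or from the endogenous gene was not tested.

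Among genes found in at least 20% of cells, Lgr5 had the closest companions. Its mean within-set Spearman correlation over cells was 0.79 with Cntn2 and 0.75 with Ptpn7, and 1.15% of 12354 genes reached 0.3 in all 4 sets. Cntn2, a neuronal adhesion molecule, and Ptpn7, a phosphatase of blood cells, were each detected in 97.1% to 100% of the cells of a set. The medians of Cntn2 were 115.4 and 68.4 TPM in untreated and treated AG and 4.91 and 5.02 TPM in GHA501A cells. Those of Ptpn7 were 98.4 and 54.8 TPM in AG and 8.71 and 7.57 TPM in GHA501A cells. In AG cells both were thus lower with treatment, as was the median of Lgr5 (5.87 and 3.25 TPM). Whether the listed level of Lgr5 is particular to it or shared with these rows was not tested. Znrf3 had 1 gene that reached 0.3 in all 4 sets, Mthfd1 (mean 0.38), and Ccnd1 and Tcf7 had none. The highest mean for Ccnd1 was 0.52, above that of Mthfd1, but that gene had only 0.15 in its lowest set. The well-detected genes were not correlated with each other in a constant direction: Lgr5 and Znrf3, for instance, had rho of -0.14, 0.13, -0.37 and -0.16 in the 4 sets. The points of a correlation share libraries and base composition, and no test was made.

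A wider list of 30 further targets and feedback genes, of which 25 were in the table and 22 were tested, was compared in the same fits. Between conditions 0 of 22 were called and 2 had an unadjusted p under 0.05 (3.72% of all genes), and their median difference was -0.18. Of those with the same sign in both series, the widest was Sostdc1, which encodes the secreted Wnt and BMP inhibitor Wise. It was detected in 3 of 66 untreated and 12 of 64 treated AG cells and in 6 of 71 and 7 of 69 GHA501A cells. Its set means were 3.42 and 14.2 TPM and 4.05 and 23.7 TPM, a difference of 2.04 ± 0.35 (SE, adjusted p = 0.998 by limma, unadjusted p = 0.00286), with 50.6% of the last sum in 1 cell. Fst, the activin inhibitor follistatin, had set means of 10.4 and 18.8 TPM in the AG and 42.1 and 93.4 TPM in the GHA501A series (0.97 ± 0.33 SE, unadjusted p = 0.0387, limma). Jag1, a Notch ligand, had means of 1365 and 390 TPM in the AG and 163.99 and 132.99 TPM in the GHA501A series (-1.05 ± 0.48 SE, unadjusted p = 0.0861, limma).

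Between series, 2 of the 22 were called higher and 5 lower in the AG series, against 10.8% and 18.2% of all genes. The higher ones were Jag1 (2.30) and Dkk1, a secreted Wnt inhibitor (1.87). The lower ones included Wisp2, a matricellular protein of fibroblasts (-6.02), the hyaluronan receptor Cd44 (-5.62), the beta-catenin partner Tcf7l2 (-3.49) and Fst (-2.09). Tcf7l2 was detected in 1 of 130 AG cells and, in the GHA501A series, in 64 of 71 untreated and 58 of 69 treated cells, a pattern like that of Lef1 and of the rows listed near 0. Of 14 tested genes that carry the signal from receptor to nucleus, 0 were called between conditions (median difference -0.22), and 3 were called lower in the AG series, against 18.2% of all genes: Ctnnb1 (-6.32), the scaffold Axin1 (-4.26) and Dvl2, a Dishevelled adaptor (-3.32).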

How the data were processed

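Single cells were captured on C1 chips and amplified with SMART-Seq v4. Sites with more than 1 cell were found by imaging and excluded, per the labels, and no further doublet filter was applied. Per the study's methods, the authors trimmed reads (Cutadapt) and aligned them to GRCm38 (Tophat). Reads with several alignments were dropped, and featureCounts gave counts per gene, from which TPM were made. The deposited table holds TPM values only. It had 294 columns, of which 16 matched no label and were not used. The filter on low genes asked for more than 5 cells above 1 TPM. The test between sets was limma's moderated test (version 3.58.1, R 4.3.3; two-sided, p adjusted by Benjamini-Hochberg over 12355 genes) on log2(mean TPM + 1), with series as a block, since the study's methods control for batch. Shares have Clopper-Pearson intervals (scipy 1.17.1). The fits were tested on simulated data.

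The members and lists were chosen with earlier results of these data known. All 10 members were to be named. Further targets were named if called (at most 6 per comparison), or among the 3 widest differences with 1 sign in both series. Genes like a member were the 3 with the highest mean within-set correlation, at least 0.3 in each set; 1 gene that this rule gave is not reported here.

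Gene positions are from GENCODE M21 and promoters from RefSeq. Alternatives were a pseudocount of 0.1, other filters and detection thresholds (TPM over 0 or 5), the mean of logs, the 8 cells, cells with at least 5000 genes, Krt14-high cells, no block and each set left out. Leaving out the highest cell and the counts of rows near 0 were added after seeing the data.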

Additional observations from a re-analysis of the deposited data

How the results depend on the processing

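Treated against untreated gave 0 called genes under every alternative run, with 30 to 507 genes at an unadjusted p under 0.05. The fit without the replicate block (series) gave 0 called genes and 53 at an unadjusted p, and between series 3853 called genes against 3580. AG against GHA501A gave 5539 called genes with the mean of log2(TPM + 1), 1265 in Krt14-high cells only and 1023 to 2229 with 1 set left out, where fewer sets entered; the cause of the other changes was not tested.

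Of the differences between conditions, some changed sign. In Krt14-high cells only, with 8 untreated and 10 treated cells in the GHA501A series, Axin2 was -0.0089 and Tcf7 1.05. The Tcf7 value rests on 1 of those 10 treated cells. Others kept their sign but moved by over 1.5 times, among them these. In the same Krt14-high cells Znrf3 was -0.85, Rnf43 -0.70 and Lgr5 -0.08. Of these cells in the GHA501A series, 1 of 8 untreated had Rnf43, at 7.94 TPM, and 0 of 10 treated. With the mean of logs Ccnd1 and Znrf3 were -0.50 and -0.49 (unadjusted p = 0.0538 and 0.0569, limma). With a pseudocount of 0.1 Rnf43 was -1.12 (unadjusted p = 0.0481, limma), Axin2 0.68 and Lef1 0.46. All of these had an adjusted p of 0.998 or more. With 1 set left out, and then no block, so that series and condition are mixed, the differences ran from -0.15 to 0.61 for Axin2, from -0.74 to 1.26 for Lef1, from -0.57 to 0.17 for Ccnd1, from -0.92 to 0.27 for Lgr5 and from -0.96 to 0.22 for Tcf7. Ccnd1 was also 0.08 without the untreated GHA501A set and Lef1 -0.51 without the untreated AG set. Between series, Tcf7 was 0.76 in Krt14-high cells only, and with 1 set left out Bmp4 ran from -0.89 to 1.41 and Znrf3 from -0.12 to 0.18, with -0.05 without the treated GHA501A set. The number of genes of the 8 per cell differed by 0.0785 (treated minus untreated) at TPM over 0, against -0.11. The TPM table does not carry the depth of single cells, which limits what can be said of low values.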

Other observations

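The 8 AG cells whose name and treatment label disagreed were 5 labelled treated and 3 labelled untreated. Bmp4 was detected in 4 of the 5, up to 40.9 TPM, and in 0 of the 3. Axin2 was detected in 2 of the 5, up to 15.1 TPM, and in 0 of the 3, and Tcf7 and Rnf43 in 1 of the 5 each and in 0 of the 3. Znrf3 was detected in all 8, at 18.3 to 439 TPM in the former and 1.41 to 23.9 TPM in the latter. The value of 439 TPM was above the highest of the 270 cells analysed. Lef1 was listed at 0 TPM in all 8. The direction of the Bmp4 difference in the AG series turned with how these cells were used: treated minus untreated was 7.25 percentage points with them included by treatment label, -2.71 points by name prefix and 2.37 points without them.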
